A study of Rattus norvegicus with 72 samples.

Results

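The livers of 3 rats were examined 24 h after 2000 mg/kg acetaminophen, a painkiller that injures the liver at high dose. These rats were taken by the dose and time in their titles, and they are 3 of 36 rats, on 6 of 72 arrays. They received acetaminophen suspended in methyl cellulose through a stomach tube, and control rats received the vehicle. RNA came from the left liver lobe, and equal amounts of RNA from the controls matched to each dose and time were mixed into a pool. The RNA of each treated rat was compared with that pool on 2 two-colour arrays with the dyes exchanged. Other groups used for comparison were 3 rats at 1500 mg/kg and 24 h, 3 rats at 2000 mg/kg and 6 h, and 3 rats at 2000 mg/kg and 48 h, each set against a pool of its own. All were housed in cages of 3 on NIH-07 diet with tap water. The sources used here give no strain, sex or age. The titles of these groups write the dose in mg, and the reading as mg/kg follows the titles of 150 mg/kg groups. Values are log2 ratios of treated rat over pool, so that log2 1 is a doubling, and a group value is the mean of 3 rats ± the standard deviation (SD). Values of single rats are given in the order 3105, 3106, 3107. The labels do not say which dye stands above the other in the deposited ratio. Cy5 over Cy3, usual for this software, was assumed, and every sign depends on it.

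Most acetaminophen is cleared by coupling to sulfate or glucuronic acid. Cytochrome P450 enzymes of hepatocytes around the central vein turn a further part into a reactive quinone imine, which glutathione takes up until it runs out. The remainder binds to proteins and stresses mitochondria, and pericentral hepatocytes die. Stress responses to oxidants and misfolded proteins, an inflammatory phase and regrowth of the liver by division of surviving hepatocytes are known to follow.

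A gene was called when its mean differed from 0 at an adjusted p below 0.05 by at least 1.5-fold. Of 17299 genes and unnamed probes tested, 2552 were called (14.8%), 1785 higher (10.3%) and 767 lower (4.43%). The median over all of them was log2 -0.04. With no fold minimum 8123 were called, 4162 higher and 3961 lower. Of the 9606 tested genes with a symbol, from which the lists below are drawn, 16.8% were called, 1164 higher and 450 lower. The pool counted as 1 control sample, so the tests leave out the spread between control rats.

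The measured changes were not of equal size in the 3 rats. Of 1746 genes called higher with values from all 3 rats, the rise was smallest in rat 3105 for 1441 (82.5%), in rat 3106 for 166 and in rat 3107 for 139. Their median change was log2 0.59, 0.98 and 1.02 in these rats. Of 729 genes called lower, the fall was smallest in rat 3105 for 442 (60.6%). Rat 3105 had the smallest rise in either dye orientation, for 78.6% of genes on arrays with the treated rat in Cy5 and for 71.4% with it in Cy3. The 2 arrays of rat 3105 correlated at 0.0615 over probes, against 0.524 and 0.354 for rats 3106 and 3107. After each probe's mean ratio over all 72 arrays was removed, these correlations were 0.433, 0.68 and 0.496. The 2 arrays of a rat share both RNAs. The part of array quality in the smaller changes of rat 3105 was not tested.

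The genes with the greatest rise with the same sign on all 6 arrays were Mt2A, Hspa1a, Atf3, Mt1, Akr7a3, Zfand2a, A2m, S100a9, Cxcl1, Lbp, Phgdh and Hsp90aa1. They range from 26.2-fold for Mt2A to 7.82-fold for Hsp90aa1 and include metal-binding proteins, heat shock chaperones, the stress transcription factor Atf3 and inflammatory genes. Nrep, Stac3, Sez6, Fads1, Fasn, G6pc1, Kynu, Cyp3a2, Slc2a5, Bmf, Pbsn and Avpr1a fell most, from 17.4-fold for Nrep to 4.48-fold for Avpr1a. Stac3, known from muscle as an adaptor of excitation and contraction, stood at log2 -3.82, -4.19 and -4.26, and Nrep, a small intracellular protein studied in nerve repair, at log2 -3.61, -4.22 and -4.52. The 3 rats lay close together for both, and for Mt2A, Mt1, Hspa1a, Akr7a3 and Slc2a5. They lay far apart for S100a9 and A2m, which were 1.31 and 1.72 in rat 3105 and above 3 in the others.

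**Figure D1:**
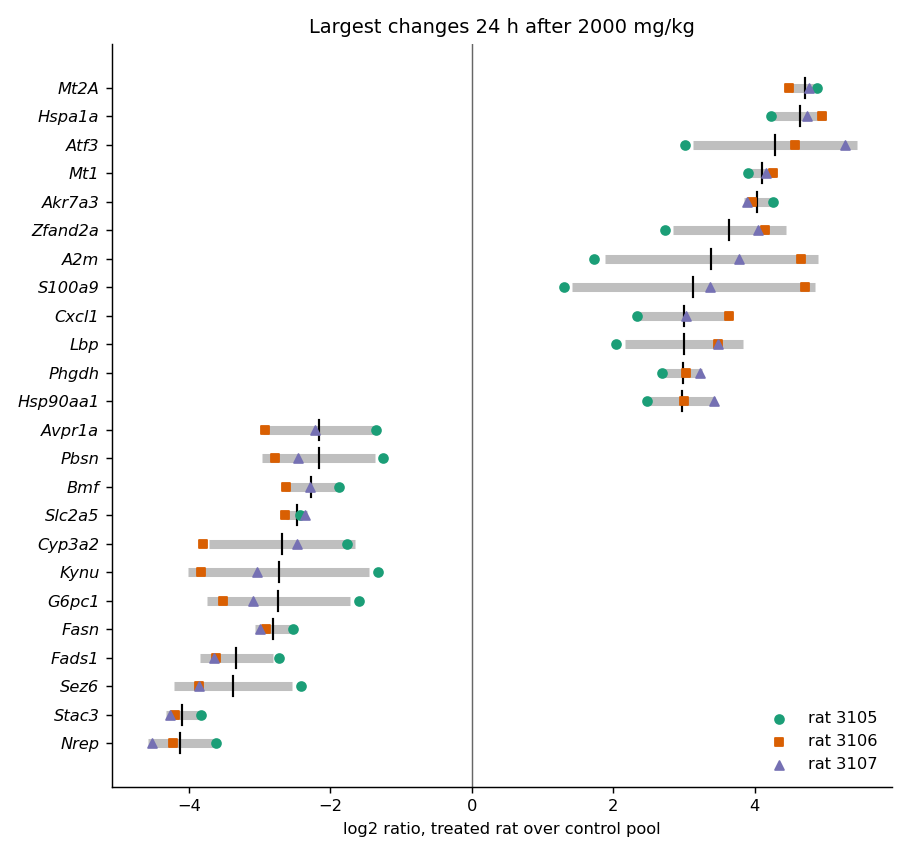
The log2 ratio of treated rat over control pool (x axis) for the 12 genes with the greatest rise and the 12 with the greatest fall (y axis). Symbols are the 3 rats, the black tick is their mean and the grey bar is the mean ± SD. Mt2A, Mt1, Akr7a3 and Stac3 sit tightly together, while rat 3105 stands nearest to 0 for A2m, S100a9, Kynu and G6pc1.

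Genes that bind metals and refold proteins rose furthest. The metallothioneins, small cysteine-rich proteins that hold zinc and copper and scavenge oxidants, were higher in all 3 rats. Mt2A stood at log2 4.87, 4.49 and 4.77 (26.2-fold, 4.71 ± 0.20, adjusted p = 2.66e-11) and Mt1 at 3.91, 4.25 and 4.16 (17.2-fold, 4.11 ± 0.18, adjusted p = 2.66e-11). Mt3 stood at 1.85, 2.81 and 2.32. Of 27 measured heat shock proteins and cochaperones 16 were called higher and 0 lower, with a list median of log2 1.25. Hspa1a, the stress-induced Hsp70 that is nearly silent in unstressed tissue, stood at log2 4.23, 4.96 and 4.74 (25-fold, 4.64 ± 0.37, adjusted p = 2.41e-09). Its 6 arrays lay between 3.78 and 5.54. Zfand2a, an arsenite-inducible zinc finger protein that works with the proteasome, was 12.5-fold higher, and the inducible cytosolic Hsp90, Hsp90aa1, was 7.82-fold higher. The constitutive Hsp70 gene Hspa8, its cochaperone Bag3 and the nucleotide exchange factor Hsph1 were 6.63-fold, 6.49-fold and 5.15-fold higher. In 15 of these 16 genes rat 3105 had the smallest rise. Slc39a10, a zinc importer, was called at log2 0.83, and the call ended without rat 3106 (0.59).

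The promoters of 3 of these chaperone genes and of both main metallothioneins are shown because each holds letters of a known stress element. The windows run from 250 bases before to 50 after the RefSeq gene start in build GRCr8, and each is written 5′ to 3′ along the gene. Capitals mark the heat shock element core GAANNTTC in the first 3 and the metal response core TGCACNC or TGCGCNC, on either strand, in the last 2. Hspa8 lies at chr8:50080264-50080563 on the plus strand, Bag3 at chr1:192533210-192533509 on the plus strand and Hsph1 at chr12:10427118-10427417 on the plus strand. Mt1 lies at chr19:10832926-10833225 and Mt2A at chr19:10838659-10838958, both on the minus strand.
Hspa8: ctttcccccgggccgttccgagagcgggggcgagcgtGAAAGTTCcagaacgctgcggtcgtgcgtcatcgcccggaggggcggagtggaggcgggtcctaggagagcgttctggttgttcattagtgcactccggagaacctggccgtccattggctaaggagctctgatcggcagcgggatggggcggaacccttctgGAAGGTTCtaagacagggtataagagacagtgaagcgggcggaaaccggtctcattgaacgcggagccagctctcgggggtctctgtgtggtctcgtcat
Bag3: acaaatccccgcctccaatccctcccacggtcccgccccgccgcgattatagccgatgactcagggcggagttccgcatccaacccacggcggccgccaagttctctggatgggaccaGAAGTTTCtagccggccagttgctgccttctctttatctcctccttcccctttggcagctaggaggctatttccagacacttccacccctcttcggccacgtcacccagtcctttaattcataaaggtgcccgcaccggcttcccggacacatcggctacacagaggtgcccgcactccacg
Hsph1: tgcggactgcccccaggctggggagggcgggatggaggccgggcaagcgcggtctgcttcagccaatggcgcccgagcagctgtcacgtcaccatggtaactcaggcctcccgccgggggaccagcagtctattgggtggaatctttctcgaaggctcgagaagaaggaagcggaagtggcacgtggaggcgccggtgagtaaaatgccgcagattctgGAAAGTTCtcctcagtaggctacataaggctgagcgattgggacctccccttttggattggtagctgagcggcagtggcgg
Mt1: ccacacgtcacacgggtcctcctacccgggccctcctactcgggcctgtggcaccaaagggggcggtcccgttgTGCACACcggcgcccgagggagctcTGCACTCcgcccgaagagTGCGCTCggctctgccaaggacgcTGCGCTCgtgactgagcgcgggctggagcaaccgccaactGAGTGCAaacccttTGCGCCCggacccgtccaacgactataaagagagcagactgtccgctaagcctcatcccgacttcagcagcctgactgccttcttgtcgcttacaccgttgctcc
Mt2A: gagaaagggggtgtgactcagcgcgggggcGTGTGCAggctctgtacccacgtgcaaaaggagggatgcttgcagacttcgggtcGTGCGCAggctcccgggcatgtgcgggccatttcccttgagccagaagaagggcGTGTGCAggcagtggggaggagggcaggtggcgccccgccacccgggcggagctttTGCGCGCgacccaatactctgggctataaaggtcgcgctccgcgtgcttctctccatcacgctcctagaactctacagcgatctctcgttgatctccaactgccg
The heat shock core stands in 7 of the 15 called heat shock genes that have a window, and in 8.59% of all 33469 windows. These 7 are Bag3, Dnaja1, Dnajb1, Hspa8, Hspd1, Hspe1 and Hsph1. Hspa1a, Zfand2a and Hsp90aa1, which rose most in the list, are not among them. Only windows with a match are printed above, and 15 of the 16 called genes have a window. The metal core stands 6 times in Mt1 and 4 times in Mt2A, and at least 1 match lies in 24.2% of all windows. Counted from the gene start, its matches in Mt1 begin between positions -176 and -55. The antioxidant element core TGACNNNGC, the composite element TGATGNAA of ATF4 and C/EBP factors and the sterol element TCACNCCA were searched in the same way. They stand in 12.1%, 3.98% and 3.89% of all windows, and in 3 of 10 called NRF2 targets, 3 of 11 called ATF4 genes and 1 of 10 called cholesterol genes with a window. A match is a run of letters and not a measured binding site.

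Genes of the amino acid and endoplasmic reticulum stress responses rose together. Of 22 measured genes of the ATF4 response, which translation arrest switches on, 12 were called higher and 0 lower (list median log2 0.74). Atf3, a stress-induced repressor, stood at log2 3.02, 4.57 and 5.28 (19.5-fold). Phgdh, the entry enzyme of serine synthesis, stood at 2.68, 3.03 and 3.23 (7.9-fold), and the pseudokinase Trib3 at 2.17, 2.45 and 2.27. The 3 rats lay close together for Phgdh and Trib3, whereas Atf3 was lowest in rat 3105 and highest in rat 3107. The arginine carrier Slc7a1, the CHOP gene Ddit3 and the amino acid carrier subunit Slc3a2 were 5.45-fold, 3.64-fold and 3.25-fold higher, and Atf4 itself was 2.38-fold higher. Asns, asparagine synthetase, a standard ATF4 target, was not called at log2 0.03, 0.57 and 0.94 (0.51 ± 0.46, adjusted p = 0.0034). It passed 1.5-fold without rat 3105 (0.75). Of 15 chaperones and quality control genes of the endoplasmic reticulum, 11 were called higher and 0 lower (median log2 1.03). Creld2, a secreted stress protein, stood at log2 2.38, 3.05 and 2.99, and the Hsp70 of that compartment, Hspa5, at 1.12, 1.75 and 2.40. Dnajb9, Herpud1, Hsp90b1 and Dnajb11 rose between 3.45-fold and 2.57-fold. Rat 3105 had the smallest rise for all 11. Among 15 aminoacyl-tRNA synthetases 3 were called (20%, near the 16.8% of all genes with a symbol). Yars1, Sars1 and Iars1 were higher, at log2 1.29, 1.00 and 0.98, and 5 were called without rat 3105 or without rat 3106. Iars1 is a mean of unlike probes, at 1.41 and 0.56, and its call ended with probes kept apart.

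The antioxidant program of NRF2, the factor that senses electrophiles such as the quinone imine of acetaminophen, had 15 of 28 measured targets called higher and 0 lower (median log2 0.83). For 9 of these 15 the smallest rise was in rat 3105. Akr7a3, an aldehyde reductase that detoxifies aflatoxin in rat liver, stood at log2 4.25, 3.96 and 3.89 (16.4-fold, 4.04 ± 0.19, adjusted p = 1.04e-11). Nqo1, which reduces quinones, stood at 2.83, 2.46 and 2.44 (5.96-fold). Both were highest in rat 3105, where most other genes moved least. Gclm, the modifier subunit of the first enzyme of glutathione synthesis, stood at 1.73, 1.78 and 1.93. The cystine carrier Slc7a11, which supplies that pathway, stood at 0.64, 2.09 and 2.0, low in rat 3105. Hmox1, which opens the heme ring, stood at 1.67, 3.45 and 3.25 (6.91-fold), and its 2 probes differed, at log2 2.17 and 3.40. The iron storage genes Ftl1 and Fth1 were 3.75-fold and 2.09-fold higher, Hpx, which binds free heme, was 1.95-fold higher, and 6 of 16 genes of heme and iron handling were called in all. The call of Hpx ended with Cy5 arrays only. Tfrc and Ireb2, also among these 6, lost their calls without rat 3107 (0.46 and 0.49).

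Glutathione S-transferases, which couple glutathione to electrophiles, moved in either direction: 6 of 15 were called higher and 2 lower. Gstp1, the pi class enzyme that normal rat hepatocytes hardly express, stood at log2 2.39, 3.38 and 2.64 (6.98-fold, 2.80 ± 0.52, adjusted p = 1.11e-11). Gsta3 stood at 2.96, 1.75 and 2.12 (4.85-fold), and Gstm1, Gsta2 and Gsta1 were 1.97-fold, 1.85-fold and 1.77-fold higher. The alpha class genes and Gstm1 were highest in rat 3105, at 1.24 for Gsta2, 1.07 for Gsta1 and 1.37 for Gstm1. Gstm7 was 1.79-fold lower. Members of this family have near-identical sequences, so signal may be shared between them.

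The machinery of protein production and disposal was broadly higher. Of 47 cytosolic ribosomal proteins 40 were called higher and 0 lower, with a median of log2 0.89. Members ranged from -0.53 to 1.4 ± 0.26 for Rpl6. The median of the list was 0.62, 1.06 and 1.04 in the 3 rats. Rps6, Rpl5, Rpl4, Rpl8 and Rpl9 were between 2.38-fold and 2.3-fold higher. Of 32 ribosome assembly factors 19 were called higher and 0 lower (median log2 0.81). The nucleolar proteins Nop58 and Nop56, which guide methylation of ribosomal RNA, were 5.76-fold and 3.92-fold higher, and Npm1 was 4.74-fold higher over rats 3106 and 3107, since rat 3105 had no value. Of 35 proteasome subunits 23 were called higher and 0 lower (median log2 0.72), with members from log2 -0.20 to 1.04 for Psma5. Psmc4, Psmd7, Psmd12, Psmb5 and Psma1 lay between 1.00 and 0.91. The call of Psmc4 ended with Cy5 arrays only, and that of Psmd12 with probes kept apart. Of 7 polyamine genes 4 were called higher, led by spermidine synthase Srm at log2 2.07, 2.61 and 2.29 (5-fold). Ornithine decarboxylase, Odc1, the entry enzyme, was 3.24-fold higher, and Sat1, which acetylates polyamines for export, was 3.53-fold higher, with 0.57 in rat 3105 against 2.76 and 2.11. By contrast, 0 of 52 oxidative phosphorylation subunits were called by limma in either direction, and their median was log2 -0.01. Ribosomal protein genes have many near-identical copies in the genome, which probes may not separate.

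**Figure D2:**
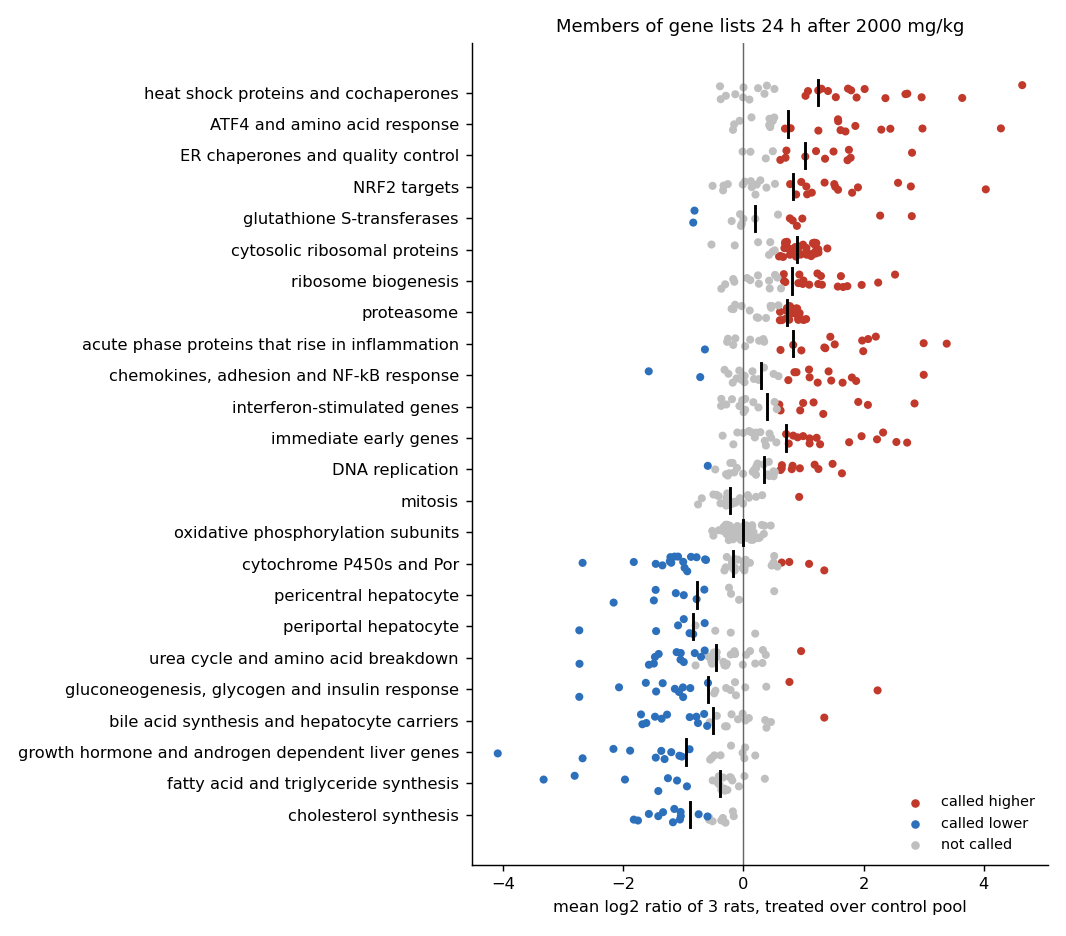
Each point is 1 measured gene of a list (rows) at its mean log2 ratio over 3 rats (x axis), red where called higher, blue where called lower and grey where not called. Black bars are list medians. Most ribosomal proteins and proteasome subunits lie to the right of 0, with lowest members at -0.53 and -0.20, oxidative phosphorylation subunits centre on 0, and metabolic lists lie to the left.

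Among P450 genes and conjugating enzymes more were called lower than higher, and most were not called. Of 42 P450 genes with their partners, some of which act on sterols, 16 were called lower and 4 higher. Cyp3a2, a male-predominant P450 of rat liver, stood at log2 -1.77, -3.80 and -2.47 (6.41-fold lower, adjusted p = 8.35e-06), and the male-specific Cyp2c11 at -0.73, -2.18 and -1.46. Cyp2j3, an arachidonic acid epoxygenase, and Cyb5r3, the cytochrome b5 reductase, were 2.55-fold and 2.34-fold lower. Cyp2e1, a main activator of acetaminophen, was not called, and its rats differed: log2 1.24, 0.13 and 0.17 (adjusted p = 0.0591). Both arrays of rat 3105 were high for it, at 1.5 and 0.99, and it was called higher without rat 3106 (0.70). Cyp1a2, another activating enzyme, stood at -0.39, -1.08 and -0.87, and its call ended without rat 3106 (-0.63). Por, the reductase that feeds electrons to all microsomal P450s, was higher in all 3 rats at 1.04, 1.19 and 1.05 (2.13-fold). Cyp7b1, an oxysterol hydroxylase, was 2.54-fold higher. Of 17 conjugating enzymes 5 were called lower and 1 higher, and 3 were lower without rat 3106. The sulfotransferase Sult1c3 fell by 1.98 on the log2 scale, and its rats stood at -0.82, -2.75 and -2.36. Sult1a1, which sulfates acetaminophen, stood at -0.35, -1.17 and -0.73, and its call ended without rat 3106 (-0.54). Sult1e1 stood at -0.11, -2.55 and -0.54, a fall carried by rat 3106 (-0.32 without it). Papss1, which makes the sulfate donor, was 1.8-fold higher as a mean of unlike probes, log2 1.79 and -0.09.

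Most measured markers of either end of the liver lobule were called lower. Of 11 measured pericentral markers 7 were called lower and 0 higher (median log2 -0.78), with 4 lower and 1 higher without rat 3106. The 1 higher was Cyp2e1, also a pericentral marker, which stood at log2 1.24, 0.13 and 0.17 and was not called with all 3 rats. Avpr1a, the hepatic vasopressin receptor, stood at log2 -1.35, -2.92 and -2.21. Glul, glutamine synthetase, confined to hepatocytes next to the central vein, stood at -1.07, -1.86 and -1.46 (fell by 1.46 on the log2 scale). Oat, an enzyme of ornithine breakdown, stood at -1.34, -1.69 and -1.45. Gulo, the last enzyme of vitamin C synthesis, was lower at log2 -0.99. Rgn, regucalcin, was lower in the mean (-1.13), but stood at -0.04 in rat 3105, and its call ended without rat 3106 (-0.52). Of 11 periportal markers 7 were also called lower and 0 higher (median log2 -0.84). G6pc1, the last step of glucose release, led them, and Cyp2f4, Gls2, Igf1 and Ctsc lay between log2 -1.09 and -0.84. G6pc1, Pck1, Gls2 and Igf1 are also counted in the glucose, amino acid or plasma protein lists of other paragraphs. In whole tissue, fewer cells of a type and less RNA per cell cannot be told apart.

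Genes of glucose output were lower, while glycolysis genes were not. Of 21 genes of gluconeogenesis, glycogen and insulin response 11 were called lower and 2 higher (median log2 -0.59). G6pc1 stood at log2 -1.59, -3.51 and -3.10 (6.66-fold lower, adjusted p = 3.04e-07), Pck1, the rate-controlling enzyme of gluconeogenesis, at -1.49, -2.09 and -0.79, and Gckr, the glucokinase regulator, at -0.96, -2.85 and -2.41. Liver glycogen phosphorylase, Pygl, was 3.09-fold lower, and Pfkfb1, which sets the balance of glycolysis and gluconeogenesis, was 2.54-fold lower. Igfbp1, a secreted binding protein that insulin represses, went the other way at 1.38, 2.83 and 2.5 (4.71-fold higher). Slc2a5, the fructose carrier, stood at -2.43, -2.64 and -2.36, with little spread. Of 37 genes for urea production and for breaking down amino acids 12 were called lower and 1 higher. Kynu, kynureninase, stood at -1.32, -3.83 and -3.04 (6.64-fold lower), Cdo1, cysteine dioxygenase, at -0.51, -2.17 and -2.05, and the urea cycle enzyme Otc at -0.83, -1.79 and -1.62. Gnmt, which uses up methyl groups, and Prodh, proline dehydrogenase, were 2.78-fold and 2.16-fold lower. Rat 3105 had the smallest change for all 13 called genes. The 1 gene higher was tyrosine aminotransferase, Tat, at log2 0.96, and its call ended without rat 3106 (0.91) or 3107 (0.81). Of 20 glycolysis and hypoxia genes 6 were called higher and 0 lower, among them Ankrd37 at 3.26-fold and Aldoa at 2.7-fold.

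In lipid synthesis all called genes were lower. Of 22 genes of fatty acid and triglyceride synthesis 7 were called lower and 0 higher. Fads1, the delta-5 desaturase, stood at log2 -2.73, -3.61 and -3.65 (10-fold lower, -3.33 ± 0.52, adjusted p = 2.02e-12), fatty acid synthase, Fasn, at -2.53, -2.91 and -2.99 (7.02-fold lower), and Fads2 at -1.89, -2.24 and -1.80. Thrsp, Elovl6 and Acly were 2.67-fold, 2.39-fold and 2.15-fold lower. Of 20 cholesterol synthesis genes 12 were called lower and 0 higher (median log2 -0.90). Cyp51, lanosterol demethylase, stood at -1.99, -1.72 and -1.77 (3.55-fold lower), squalene synthase, Fdft1, at -1.71, -1.49 and -1.52, and Tm7sf2, a sterol reductase, at -1.43, -1.90 and -1.94. Acat2, Ebp and Pmvk were 2.67-fold, 2.53-fold and 2.26-fold lower. Rat 3105 did not stand apart here: the list median was log2 -1.11 in it, against -0.84 and -0.74 in the others, and the smallest fall lay in rat 3105 for 3 of 12 genes. Fatty acid oxidation was mixed, with 7 of 30 called lower and 3 higher. Acsl1, Hadh, Acox2, Ehhadh and Acaa1a were between 2.17-fold and 1.72-fold lower, and Acaa2, the mitochondrial thiolase, was 2.5-fold higher. The probes of Acsl1 differed widely, at log2 -2.13 and -0.10, and its call ended with probes kept apart. The call of Ehhadh ended with Cy5 arrays only. Cpt1a, the carnitine gate of mitochondrial oxidation, was not called at 0.05 ± 0.17.

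Among hepatocyte carriers and hormone-dependent genes nearly all calls were lower. Of 24 genes of bile acid synthesis and hepatocyte transport 11 were called lower and 1, Cyp7b1, higher. The bile acid importer Slc10a1 stood at log2 -0.83, -2.51 and -1.78 (3.26-fold lower), Slc27a5, which couples bile acids to coenzyme A, at -0.75, -2.38 and -1.72, and the organic anion importers Slco1b2 and Slco1a1 were 2.78-fold and 2.57-fold lower. Nr0b2, the SHP repressor of bile acid synthesis, stood at -0.50, -3.34 and -1.21, and its call ended without rat 3106 (-0.85). Of 20 genes that depend on growth hormone or androgen in rat liver 11 were called lower and 0 higher (median log2 -0.96). Stac3, given above among the greatest falls, is a member of this list and fell most in it (-4.09). Cyp3a2, Cyp2c11, Igf1, Igfals and Sult1e1 are also counted in the P450, plasma protein or conjugating enzyme lists. Pbsn, probasin, an androgen-driven secretory protein, stood at -1.26, -2.79 and -2.45, the serpin Serpina3c at -0.98, -2.26 and -2.42, and Igfals, the partner of IGF-I in plasma, at -0.60, -2.27 and -1.23. Rat 3105 had the smallest fall for all 11. Of 33 complement, coagulation and carrier proteins 7 were called lower and 3 higher. C4bpb, a complement inhibitor chain, was 2.65-fold higher, and C6, Mbl2, Igf1 and Plg were between 2.31-fold and 1.74-fold lower.

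Acute phase genes, which hepatocytes turn on under IL-6 and IL-1, rose. Of 23 measured, 13 were called higher and 1 lower (median log2 0.83). A2m, the major acute phase protease inhibitor of the rat, stood at log2 1.72, 4.65 and 3.78 (10.5-fold, 3.39 ± 1.51, adjusted p = 1.31e-05). Without rat 3105 it was 4.22, and without rat 3106 2.75. Lbp, which presents endotoxin, stood at 2.03, 3.49 and 3.48, the acid glycoprotein Orm1 at 1.41, 2.63 and 2.19, and the transcription factor Cebpd at 1.14, 2.85 and 2.0. Fibrinogen chains were more even, with Fgb at 1.92, 2.5 and 2.19 and Fgg at 1.64, 2.44 and 1.85. Lcn2, a siderophore-binding protein, stood at 0.35, 2.20 and 1.55 with the same sign on 4 of 6 arrays, and its call ended without rat 3106 (0.95). Of 30 chemokine, adhesion and NF-kB genes 12 were called higher and 2 lower. The neutrophil attractant Cxcl1 stood at 2.34, 3.64 and 3.03 (8.02-fold), and the monocyte attractants Ccl7 at 1.02, 3.01 and 1.61 and Ccl2 at 0.95, 2.31 and 2.16. Il1b was 3.14-fold higher. The interferon regulatory factor Irf1 was the same in all 3 rats, at 1.48, 1.41 and 1.49. Cxcl12, a homeostatic chemokine, fell by 1.58 on the log2 scale, at -0.78, -2.40 and -1.55.

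Interferon-stimulated genes showed another order of the rats. Of 22 measured, 9 were called higher and 0 lower (median log2 0.38). Ifit3, a binder of foreign RNA, stood at log2 2.39, 2.53 and 3.63 (7.21-fold, 2.85 ± 0.68, adjusted p = 1.74e-07), and the RNA-dependent kinase gene Eif2ak2 at 2.24, 1.46 and 2.52. Oas1a, which makes the activator of RNase L, stood at 1.91, 0.16 and 1.44, and the GTPase Irgm at 1.97, 0.80 and 1.22. Usp18 and Oasl were 3.76-fold and 1.99-fold higher. Rat 3106 was lowest for 8 of the 9 called genes, although it was high for A2m, Cxcl1 and S100a9. Both arrays of rat 3106 were low for Oas1a, at 0.30 and 0.01, and both arrays of rat 3105 were high, at 1.97 and 1.85.

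Beside the pericentral and periportal hepatocyte markers given above, the general hepatocyte and neutrophil lists had the largest shares called among the cell type lists with more than 3 members. The hepatocyte list had 2 of 13 called higher and 2 lower (median log2 -0.12), with the asialoglycoprotein receptor Asgr2 lower at -1.12 and Cps1, whose call ended without rat 3106 (-0.55), at -0.65. Its higher members were Fgb at 2.20, also counted as an acute phase gene, and Tat at 0.96. Without rat 3106 or 3107 only 1 was called higher. Of 7 neutrophil markers 2 were called, both higher. S100a9, the calprotectin subunit abundant in neutrophils, stood at 1.31, 4.72 and 3.37 (8.76-fold), and the decoy receptor Il1r2 at 0.44, 2.58 and 1.93. The other 5 lay between log2 -0.08 and 0.30. Without rat 3105 S100a9 was 4.04, and without rat 3106 2.34. Of 17 macrophage markers Lyz2, lysozyme, was called higher at 0.34, 1.61 and 1.64. Ptprc was called higher at 0.59 and Clec4f, specific to resident Kupffer cells, lower at -0.66, and the former call ended without rat 3106 (0.43), the latter without rat 3106 (-0.52) or 3107 (-0.53). Of 25 genes of injury macrophages and matrix remodelling 6 were called (24%, against 16.8% of all genes with a symbol). All were higher: S100a10, S100a4, Gpnmb, Lgals3, Cd44 and Mmp14, at log2 2.05 down to 0.82. Rat 3105 had the smallest rise for each. Spp1, osteopontin, was not called, and stood at -0.15, 2.37 and 0.27, high in rat 3106 only. It was called higher without rat 3105 (1.32). Of 12 endothelial markers Fcgr2b, the inhibitory Fc receptor of sinusoidal endothelium, stood at 1.5, 2.12 and 1.92 (3.6-fold), and the hyaluronan receptor Lyve1 was called higher at 0.72. The call of Lyve1 ended with arrays scaled to equal spread, after quantile normalization and with Cy5 arrays only. The shares called were 16.7% of endothelial and 17.6% of macrophage markers, near the 16.8% of all genes with a symbol. The list medians were log2 -0.01 for endothelium, -0.11 for stellate cells and fibroblasts (1 of 16 called, Dcn), 0.01 for T and NK cells (1 of 15, Cd2, lower) and 0.02 for cholangiocytes (0 of 7). Of 3 B cell markers Jchain was called at 0.71, and this call ended without rat 3107 (0.46). The call of Cd2 ended without any 1 of the 3 rats (-0.67, -0.87 and -0.79). The part of changes in cell content in the other results was not tested.

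Of 29 immediate early genes 15 were called higher and 0 lower (median log2 0.71). Egr1 stood at log2 1.61, 3.25 and 3.32 (6.62-fold), Klf6 at 1.09, 3.29 and 3.26, the phosphatase Dusp5 at 1.21, 3.10 and 2.67 and the orphan receptor Nr4a1 at 0.96, 3.61 and 2.10. Ier3 and Rhob were 3.91-fold and 3.39-fold higher. The AP-1 subunit Fos and the growth regulator Myc were each 2.15-fold higher. Jun was 2.42-fold higher as a mean of unlike probes, at log2 0.56 and 2.0, and its call ended with probes kept apart. Rat 3105 had the smallest rise for all 15, and the list median in it was 0.16, against 1.16 and 0.77. Of 28 p53 targets and arrest or apoptosis genes 9 were called higher and 1 lower. Gadd45b, Gadd45a and Ccng1 were 3.97-fold, 3.74-fold and 2.88-fold higher, and Tigar and Fas were 2.26-fold and 2.11-fold higher. The core p53 targets Cdkn1a (0.03 ± 0.25) and Mdm2 (-0.13 ± 0.10) were not called. Bmf, which promotes apoptosis by binding BCL2, stood at -1.88, -2.63 and -2.29.

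Of 33 DNA replication genes 10 were called higher and 1 lower, but leaving out rat 3106 left 5 higher. The single-strand binding subunit Rpa2 stood at log2 1.54, 2.08 and 1.30. The helicase subunit Mcm5 stood at 1.68, 2.49 and 0.29, the flap nuclease Fen1 at 0.74, 1.81 and 1.19, and Mcm4 at 0.79, 1.97 and 0.80. Rat 3107 had the smallest change for 7 of the 11 called genes. The list median was 0.43, 0.41 and 0.02 in the 3 rats. The sliding clamp Pcna was 1.76-fold higher. Of 24 mitosis genes 1 was called, the kinase subunit Cks1b (1.90-fold higher), and the median was log2 -0.22. Cdk1, the mitotic kinase, stood at -0.07, -0.16 and -0.58 and was not called. Of 18 cytoskeleton genes 5 were called higher and 2 lower, with the tubulin Tubb5 at 1.46, 2.33 and 2.24. Tubb6 was a mean of 2 unlike probes, at 0.16 and 3.45. Of 17 clock and glucocorticoid genes 4 were called higher and 0 lower (2 higher if rat 3107 was left out), with Per1 at -0.16, 1.26 and 1.4 and Dbp at 1.09, 1.00 and 0.87. The call of Per1 ended without rat 3107 (0.55), and that of Dbp with Cy3 arrays only. The share of this list called was 23.5%, against 16.8% of all genes with a symbol.

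**Figure D3:**
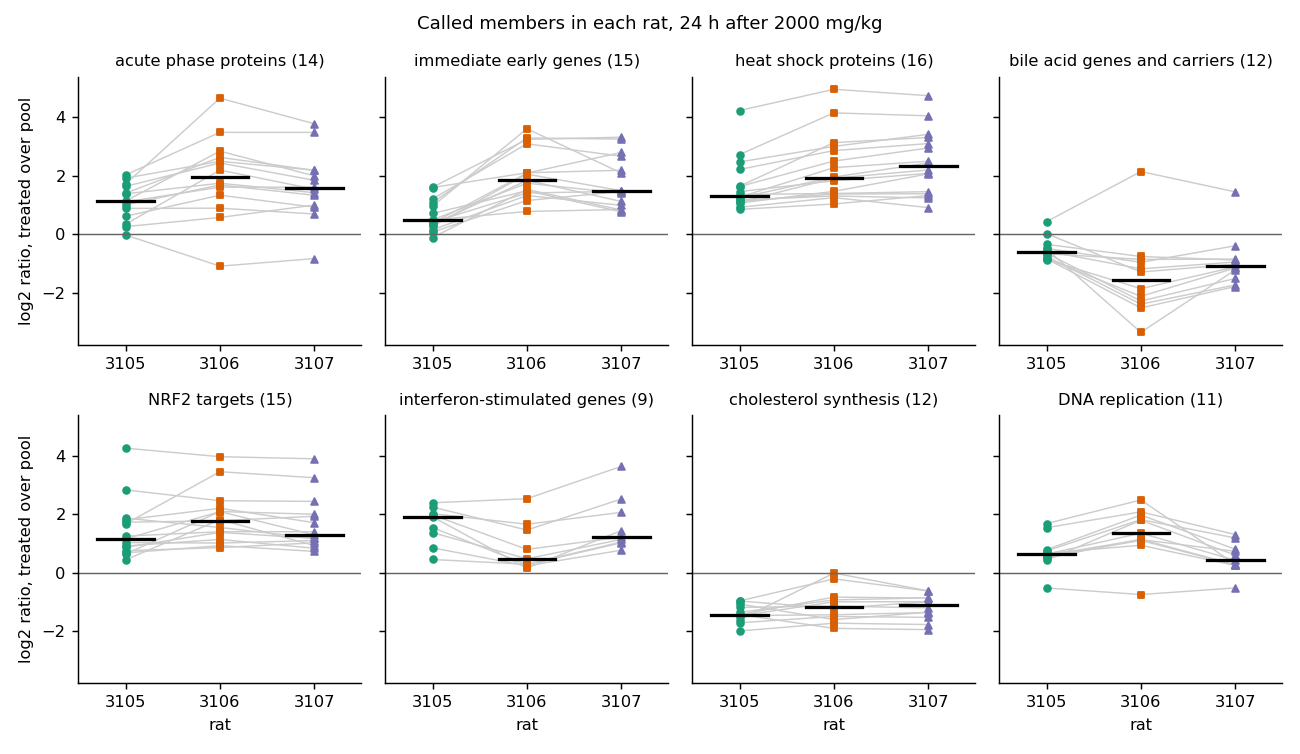
Each panel shows the called members of 1 list in the 3 rats (x axis), as log2 ratio of treated over pool (y axis). Grey lines join the values of a gene, black bars are medians of the called members, and the number of genes stands in brackets. Rat 3105 lies nearest to 0 for acute phase, immediate early and carrier genes, rat 3106 for interferon genes and rat 3107 for DNA replication, while the medians for cholesterol synthesis are -1.43, -1.18 and -1.09.

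The next lower dose at the same time tests what the step from 1500 to 2000 mg/kg adds. The difference between the groups was called for 897 genes (5.19%), 433 higher (2.5%) and 464 lower (2.68%) at 2000 mg/kg. This count was unstable, with 17 called when only the 6 rats were fitted and 89 with arrays scaled to equal spread. It was 564 without rat 3107, and without rat 3020 of 1500 mg/kg it was 611. Most lists named above differed in few members: 2 higher and 1 lower of 27 heat shock genes, 0 of 22 ATF4 genes, 1 higher and 2 lower of 28 NRF2 targets and 0 of 35 proteasome subunits. The greatest number of differences lay in acute phase genes, with 6 of 23 higher and 1 lower, and in gluconeogenesis, with 7 of 21 lower and 0 higher. Other lists differed too: 5 of 29 immediate early, 4 of 30 chemokine and 4 of 12 endothelial genes were higher, with 0 lower. Of 37 urea cycle and amino acid genes 4 were lower and 0 higher. Fgb stood at 1.92, 2.5 and 2.19 against 1.23, 1.09 and -0.19 at 1500 mg/kg (difference log2 1.49, SE 0.24, adjusted p = 0.000326). With Cy3 arrays only this difference was 0.10 and not called. Pck1 stood at -1.49, -2.09 and -0.79 against 0.27, 0.35 and 0.64 (difference -1.87, SE 0.28).

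Zfp354a, a KRAB zinc finger repressor, had the greatest difference. It stood at log2 -1.94, -1.79 and -1.25 at 2000 mg/kg and at 1.67, 0.39 and 2.72 at 1500 mg/kg (difference -3.25, SE 0.42, adjusted p = 6.8e-05). It was thus below its pool at the higher dose and above it at the lower one. Slc2a5 was lower by 2.07, at -2.48 ± 0.15 against -0.41 ± 0.19. Zgpat, Akap12 and Hectd2 were above the pool at 1500 mg/kg (1.36, 1.17 and 1.66) and not at 2000 mg/kg (-0.76, -0.71 and -0.19). With Cy3 arrays only, their differences were -0.81, -0.62 and -0.30 and were not called. Fcgr2b stood at 1.5, 2.12 and 1.92 against 0.23, 0.18 and -1.4 (difference 2.17, SE 0.47). Mvb12b and the syndecan Sdc1 were higher at 2000 mg/kg by 1.53 and 1.34. Capn6 and Sgk1 stood below the pool at 1500 mg/kg (-1.23 and -2.01) and near it at 2000 mg/kg (0.15 and -0.35). The difference of Capn6 was 0.26 and not called with Cy3 arrays only. The call of Sgk1 ended without rat 3106 (1.55) or rat 3020 (1.52). Of the 12 genes named by rule for this comparison, chosen for rats that do not overlap, 10 lost their call when only the 6 rats were fitted, all but Slc2a5 and Sgk1. Rat 3020 stood apart from its group for several of these genes, and a difference between the 2 pools enters every value of this comparison.

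Against 6 h at the same dose, the difference was called for 2765 genes (16%), 1452 higher (8.39%) and 1313 lower (7.59%) at 24 h. Akr7a3 was near its pool in all 3 rats at 6 h (-0.21, 0.04 and -0.05) and 4.04 ± 0.19 at 24 h (difference 4.11, SE 0.39, adjusted p = 1.55e-08). Gstp1 went from -0.18 ± 0.04 to 2.80 ± 0.52, Creld2 from -0.23 ± 0.08 to 2.81 ± 0.38 and Ifit3 from -0.22 ± 0.18 to 2.85 ± 0.68. Atf3 and S100a9 were higher by 3.75 and 2.85. Mt1 and Mt2A did not pass the test: Mt1 stood at 4.54 ± 0.08 at 6 h and Mt2A differed by 0.14 with SE 0.48. The ribosomal proteins were higher at 24 h for 30 of 47 and the heat shock genes for 18 of 27, and of 15 endoplasmic reticulum chaperones 11 were higher and 1 lower.

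In the other direction, Sds, Got1, Pck1 and Zfp354a stood high at 6 h and were low or near the pool at 24 h. Sds, serine dehydratase, stood at log2 3.68, 3.75 and 3.55 at 6 h and at -0.68, -0.76 and -0.94 at 24 h (difference -4.46, SE 0.48). Got1, cytosolic aspartate aminotransferase, went from 3.60 ± 0.15 to 0.37 ± 0.39, and Pck1 from 1.72 ± 0.26 to -1.46 ± 0.65. Zfp354a stood at 3.80, 3.92 and 3.82 at 6 h and below its pool at 24 h (difference -5.51, SE 0.42, adjusted p = 5.03e-10). G6pc1 and Sez6 were lower by 3.11 and 2.93, at log2 -2.73 and -3.37 at 24 h. Neither stood 1.5-fold above its pool at 6 h. Of 37 urea cycle and amino acid genes 21 were lower and 0 higher than at 6 h, and of 42 P450 genes 16 were lower and 2 higher. The medians of these lists at 6 h were log2 0.22 and -0.04.

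By 48 h the difference from 24 h was called for 2737 genes (15.8%), 1389 higher (8.03%) and 1348 lower (7.79%) at 48 h. Of 24 mitosis genes 17 were higher and 0 lower than at 24 h. Cdk1 stood at log2 2.99, 3.52 and 4.31 at 48 h (difference 3.88, SE 0.25, adjusted p = 1.26e-10), and Ska1, Ccnb2, Cenpf and Cdkn3, of the mitotic spindle and its control, were higher by 4.36, 3.80, 3.74 and 3.73. Spp1 stood at 5.33, 4.81 and 5.52 at 48 h (difference 4.39, SE 0.56). Cholesterol synthesis was higher than at 24 h for 13 of 20 genes and lower for 0, with Cyp51 at 0.07 ± 0.45 after -1.83 ± 0.14. Of the stress genes, Bag3, Mt1 and Hspa1a were lower by 2.42, 2.51 and 2.12, and Hspa1a lost its call without 48 h rat 3118 (-1.41). Cxcl1 and Igfbp1 stood near the pool at 48 h, at 0.42 ± 0.37 and 0.02 ± 0.73, and the ion channel gene Piezo1 was lower by 2.08. The call of Piezo1 ended with Cy3 arrays only (-1.44) and with arrays as observations, and the calls of Mt1, Igfbp1 and Hspa1a ended with arrays scaled to equal spread. Acute phase genes were lower than at 24 h for 9 of 23 and immediate early genes for 8 of 29, with 0 higher in either list. The ribosomal proteins did not follow: 1 of 47 was higher and 0 lower.

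**Figure D4:**
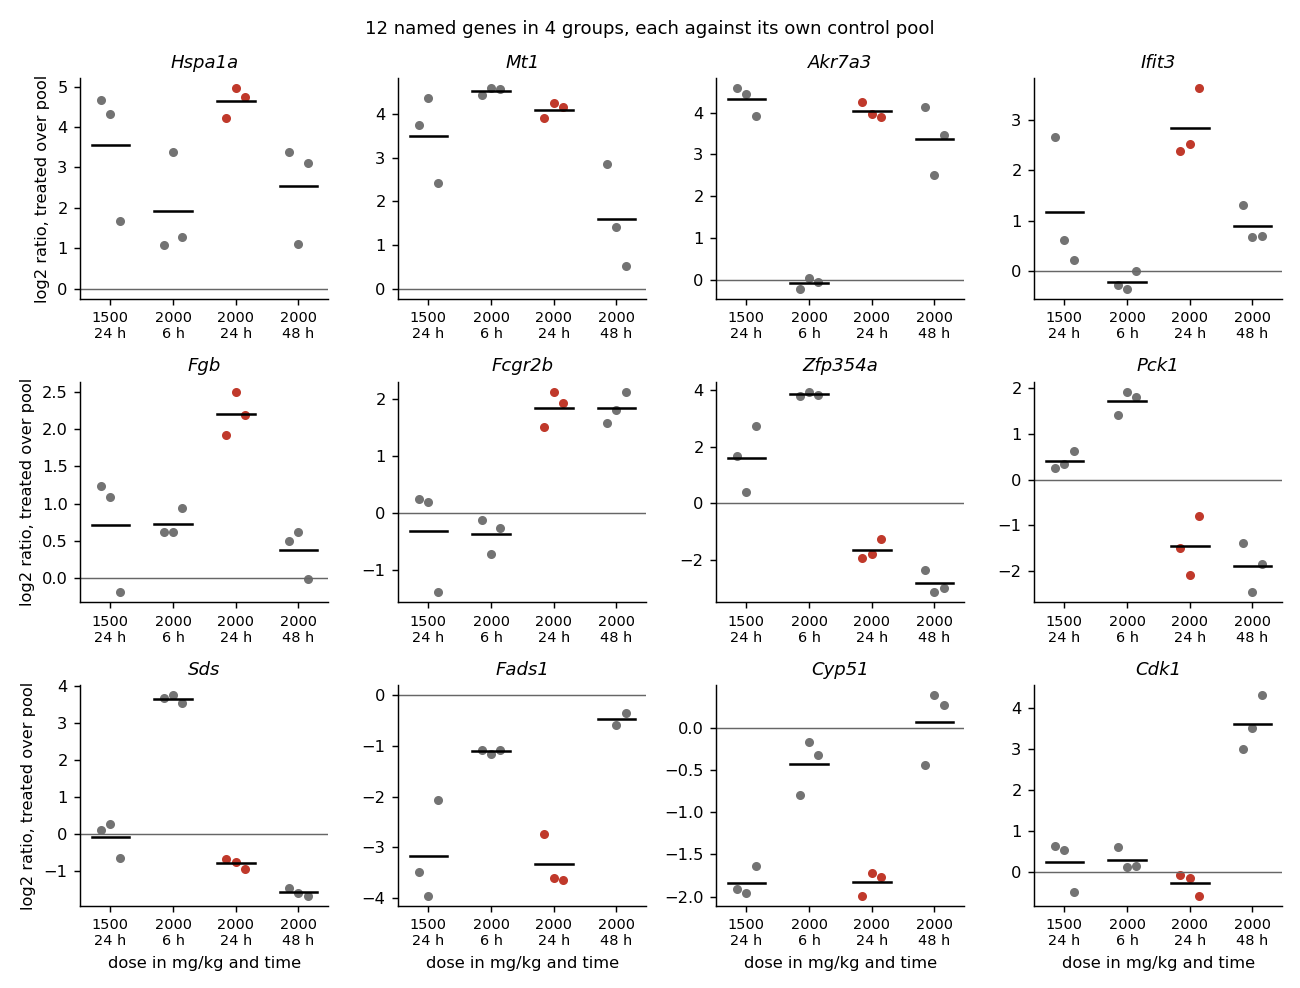
The log2 ratio of treated over pool (y axis) for 12 genes in 4 groups (x axis, dose in mg/kg and time), each against its own pool. Points are rats, red for 2000 mg/kg at 24 h, and bars are means. Zfp354a, Pck1 and Sds are above 0 at 6 h and below it at 24 h, Akr7a3 and Ifit3 are near 0 at 6 h and high at 24 h, and Cdk1 is high at 48 h only.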

How the data were processed

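RNA of treated livers and of control pools was compared on Agilent two-colour rat oligonucleotide arrays, read per the labels with scanner G2565AA and extraction software G2566AA. The authors deposited a log10 ratio per probe and array, limited to ±2. No source used here states their normalization. The deposited ratio was assumed to be Cy5 over Cy3, and if it ran the other way every sign would turn. Of the values of this group 0.738% were missing, 2.66% were exactly 0 and 0 lay at the limit. Probe brightness is unknown, so dim and bright probes could not be told apart.

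Ratios were turned to treated over pool by the dye of the treated rat, converted to log2 and averaged within each rat, and probes of 1 symbol were averaged. Of 20500 probes 12750 had 1 gene symbol in the platform annotation, 5 had several and 7745 had none. Of 17403 genes and unnamed probes, 17299 had values from at least 2 rats in each of the 12 groups and were tested. limma 3.58.1 in R 4.3.3 fitted the 12 group means over 36 rats, with 24 residual degrees of freedom, and p-values were adjusted over all tests by the Benjamini-Hochberg method. Contrasts between groups came from the same fit. The labels give the rats as separate animals. The fit was tested on simulated data. Every group value and its SD rest on 3 rats, while the spread used in the tests is shared over all 36 rats. The SD and the p-value thus measure different spreads.

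The members and the 47 gene lists (35 of pathways, 12 of cell types, 943 of 1284 symbols measured) were chosen with earlier results of these data known. Named genes are the 12 with the greatest rise and the 12 with the greatest fall among called genes with 1 sign on all 6 arrays, up to 6 called genes with the largest change in each list, a short list named whether called or not, and 6 in each direction of each contrast whose rats do not overlap. Some genes of the short list are not analysed here. Uncalled markers given only as a range were chosen after their values were seen. The list medians cover all measured members. In the remaining lists, 3 of 17 autophagy and ubiquitin genes were called higher (17.6%, near the 16.8% of all genes with a symbol). Of the erythroid markers 0 of 4, and of the pancreas and muscle markers 0 of 6, were called by limma. Promoter windows and their build, GRCr8, come from RefSeq, and 192 of 231 named symbols had one.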

Additional observations from a re-analysis of the deposited data

Results flagged for a closer look

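The tests of the difference between groups called 897 genes between 2000 and 1500 mg/kg at 24 h, 2765 between 24 and 6 h at 2000 mg/kg and 2737 between 48 and 24 h at 2000 mg/kg. All values below are differences of log2 ratios tested by limma, and pools differ between the groups compared.

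From 1500 to 2000 mg/kg, the genes with the largest positive differences and no overlap between rats were Fcgr2b (2.17), Sgk1 (1.65), Mvb12b (1.53), Fgb (1.49), Capn6 (1.38) and Sdc1 (1.34). The largest negative ones were Zfp354a (-3.25), Zgpat (-2.12), Slc2a5 (-2.07), Akap12 (-1.88), Pck1 (-1.87) and Hectd2 (-1.85). The call of Sgk1 ended without rat 3106 (1.55) or rat 3020 (1.52). With only the 6 rats compared 10 of these 12 lost their call, all but Slc2a5 and Sgk1. With Cy3 arrays only, 6 lost it: Sgk1 (1.49), Fgb (0.10), Capn6 (0.26), Hectd2 (-0.30), Akap12 (-0.62) and Zgpat (-0.81).

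From 6 h to 24 h, the positive differences were Akr7a3 (4.11), Atf3 (3.75), Ifit3 (3.07), Creld2 (3.04), Gstp1 (2.98) and S100a9 (2.85). The negative ones were Zfp354a (-5.51), Sds (-4.46), Got1 (-3.22), Pck1 (-3.17), G6pc1 (-3.11) and Sez6 (-2.93).

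From 24 h to 48 h, the positive differences were Spp1 (4.39), Ska1 (4.36), Cdk1 (3.88), Ccnb2 (3.80), Cenpf (3.74) and Cdkn3 (3.73). The negative ones were Cxcl1 (-2.59), Mt1 (-2.51), Bag3 (-2.42), Igfbp1 (-2.22), Hspa1a (-2.12) and Piezo1 (-2.08). Hspa1a lost its call without 48 h rat 3118 (-1.41), and Piezo1 with Cy3 arrays only (-1.44).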

How the results depend on the processing

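In the order 2000 mg/kg at 24 h against its pool, against 1500 mg/kg, against 6 h and against 48 h, the counts of called genes were 2552, 897, 2765 and 2737. They were 8123, 2131, 5392 and 5550 with no fold minimum, 794, 204, 919 and 877 with a 2-fold minimum, 1129, 89, 1322 and 1174 with arrays scaled to equal spread, and 1510, 205, 1633 and 1254 after quantile normalization. Leaving out each rat in turn gave 2209 to 3102, 564 to 1265, 2345 to 2995 and 2108 to 2837. With only arrays that had the treated rat in Cy5, the first 2 counts were 4398 and 3363. The count against 1500 mg/kg was also 313 with Cy3 arrays only, 17 with only the 6 rats compared (3533 at an unadjusted p below 0.05) and 389 with only the rats of the 2 high doses. The share of calls that were higher was 69.9% in the group itself, and 51.2% with no fold minimum, 59.6% with Cy5 arrays only and 58.5% with Cy3 arrays only. Against 1500 mg/kg it was 48.3%, and 22.7% with Cy3 arrays only, 17.6% with only the 6 rats and 61.1% without rat 3105. Of 252 named results, 48 lost their call with a 2-fold minimum, 39 with scaled arrays, 22 with only the rats compared, 17 after quantile normalization and 16 without rat 3106. Papss1 turned to -0.09 when its probes were kept apart. A left-out rat or a higher threshold changes what is tested by construction. With only the 6 rats compared, the same difference was tested at the same threshold, with the spread taken from those rats alone. The cause of the changes between settings was not tested. Signal over background is unknown, so its limit could not be set. No paired analysis was possible because no rat number is shared between groups.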
